A study of Mus musculus with 4 samples.

Results

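The Myc and Max network is a set of transcription factors that share the dimerisation partner Max or its relative Mlx, and 10 of its genes were examined here in MC38 cells: Myc, Mycn, Max, Mxi1, Mxd1, Mxd3, Mxd4, Mnt, Mlx and Mlxip. They were taken by matching the NCBI gene IDs of the count table to these mouse symbols, which found all 10 members among 27179 genes. Myc pairs with Max, binds the E-box CACGTG and promotes transcription of genes for ribosome production, nucleotide synthesis and cell growth. The Mxd proteins (Mxi1 is also called Mxd2) and Mnt pair with Max as well, bind the same sites and recruit Sin3 and histone deacetylase corepressors, so they oppose Myc. Mlx pairs with Mlxip (MondoA), a factor that responds to glucose metabolites, and with some of the Mxd proteins and Mnt, while colon cancers are known for high Myc activity downstream of the Wnt pathway.

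MC38 is a mouse colon cancer cell line, labelled wild type (WT) and described as a gift in the study's methods. Cells were kept under normoxic (20% oxygen) or hypoxic (1.5% oxygen) conditions, each without IFN-γ or with IFN-γ, a T cell cytokine whose receptor works through JAK kinases. The dose named for most of the study's experiments was 5 ng/mL for 24 h. Poly-A selected RNA was sequenced from 1 library per condition, giving the untreated control under normoxia, the control under hypoxia, the IFN-γ library under normoxia and the IFN-γ library under hypoxia, and values are given in this order throughout.

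The libraries held 34302971 to 34537939 counts, and their TMM factors were 0.993 to 1.01. Genes known to respond to each stimulus followed the labels. Car9 and Egln1, both hypoxia targets, were higher with hypoxia by 2.14 and 1.38 on the log2 scale, and the IFN-γ targets Irf1, Gbp2 and Cd274 were higher with IFN-γ by 2.43, 5.20 and 2.09. The epithelial identity of the line was hardly visible in its RNA. Of 8 epithelial markers, Epcam, Krt18, Cdh1 and Cdx2 were at or under the floor of 3 counts in every library, and the 8 genes summed to 2.48 to 3.26 CPM (counts scaled to library size). Of 10 markers of T cells, macrophages, fibroblasts and endothelium, Cd8a, Adgre1 and Cd3e were at or under the same floor everywhere, and the 10 genes summed to 35.9 to 43.5 CPM, mostly from Pdgfra with 1077 to 1341 counts.

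Sequences near annotated starts of the network genes are shown for the 2 members that rose with hypoxia. They are also shown for the members with an E-box near such a start, since these factors bind E-boxes themselves. The RefSeq promoter table (GRCm38.p6) held 11 windows for 9 members, each running from 250 bases before an annotated start to 50 after it. These 9 included Mycn but not Myc, whose start was therefore not searched. The first 2 sequences below are read on the gene's strand and end in front of the transcribed exons. Capitals mark ACGTG, the core that hypoxia-inducible factors (HIF) bind, in Mxi1 at chr19:53329163-53329412 (plus strand, in front of a start that lies inside the gene), and CACGTG in Mxd4 at chr5:34187721-34187960 (minus strand).
Mxi1: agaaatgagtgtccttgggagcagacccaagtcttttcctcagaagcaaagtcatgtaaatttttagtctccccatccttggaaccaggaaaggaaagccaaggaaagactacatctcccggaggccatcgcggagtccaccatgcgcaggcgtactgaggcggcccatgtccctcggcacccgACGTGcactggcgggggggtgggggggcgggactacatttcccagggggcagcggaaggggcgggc
Mxd4: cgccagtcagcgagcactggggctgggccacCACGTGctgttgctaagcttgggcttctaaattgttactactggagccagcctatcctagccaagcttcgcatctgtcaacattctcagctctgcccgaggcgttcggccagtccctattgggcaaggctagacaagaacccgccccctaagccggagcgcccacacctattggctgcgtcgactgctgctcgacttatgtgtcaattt

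The other 3 members with an E-box near their start are shown with 30 bases around it, so that its surroundings can be compared. They are Mnt (chr11:74830789-74830818, plus strand), Mlx (chr11:101087238-101087267, plus strand) and Max (chr12:76962234-76962263, minus strand), with CACGTG in capitals. By the gene coordinates given below, the Mlx and Max stretches lie inside their genes, and the Mnt stretch spans the start of its gene.
Mnt: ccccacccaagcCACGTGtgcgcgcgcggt
Mlx: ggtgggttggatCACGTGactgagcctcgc
Max: ggtgagcccggtCACGTGttagggggccga

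CACGTG, which reads the same on both strands, was present in the windows of 4 of the 9 members that had windows. It began at position -219 in Mxd4, -123 in Mnt, -40 in Mlx and -3 in Max, counted from the annotated start. Of 32851 promoter windows of the same length, 7.15% held it. ACGTG or GCGTG on either strand and outside a CACGTG was found in 5 members (Mxi1, Mxd1, Mlxip, Mnt and Max), and 40.4% of all single windows held it. A member was counted if any of its windows held the core, and Mxi1 had several windows, so these shares differ in unit. In Mxi1 the core lay at -66 and -25 of its downstream starts. Neither motif was in the earliest Mxi1 window (chr19:53310256-53310555). That window already lies inside the gene coordinates given below, so the sequence in front of the gene was not searched. These matches describe the letters only.

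The network genes differed widely in level. Levels between genes are compared here as RPKM, reads scaled by library size and by the length of the longest annotated transcript, given as the mean of the 4 libraries with the lowest and highest in brackets. Max led with 47.3 RPKM (44.5 to 49.3), followed by Myc with 39.7 (35.2 to 41.9) and Mlx with 32.9 (31.8 to 34.0). Next came Mxd3 with 15.4 RPKM (13.7 to 16.9), Mxi1 with 9.27 (6.05 to 12.3), Mlxip with 8.18 (7.31 to 8.93) and Mnt with 7.10 (6.20 to 7.83). Mxd4 with 1.16 RPKM (0.769 to 1.78) and Mxd1 with 1.07 (0.972 to 1.13) were the lowest of the detected members. Over the 4 conditions, the ranges of Max and Myc by longest transcript did not overlap, nor did those of Myc and Mlx or of Mlx and Mxd3, whereas those of Mxi1, Mlxip and Mnt overlapped, as did those of Mxd4 and Mxd1. The order depends on the length chosen. Per kilobase of all exons together, Myc stood at 34.1, Mlx at 32.3 and Max at 25.5 RPKM, Mlxip (7.17) and Mnt (7.04) stood above Mxi1 (6.84), and Mxd1 (0.706) above Mxd4 (0.633).

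Mycn, the Myc relative of neural tumours, had 0 counts in all 4 libraries, where the floor of 3 counts corresponds to 0.0869 to 0.0875 CPM. Mycl, the third Myc gene, and Mlxipl (ChREBP), the second glucose-responsive partner of Mlx, were also at 0 in every library. Myc was thus the one detected gene among the 3 Myc genes, and Mlxip the one detected of the 2 Mlx partners that respond to glucose. Mga, a large Max partner found in a Polycomb complex, had 2382, 2666, 2522 and 2567 counts, a mean of 5.28 RPKM.

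**Figure D1:**
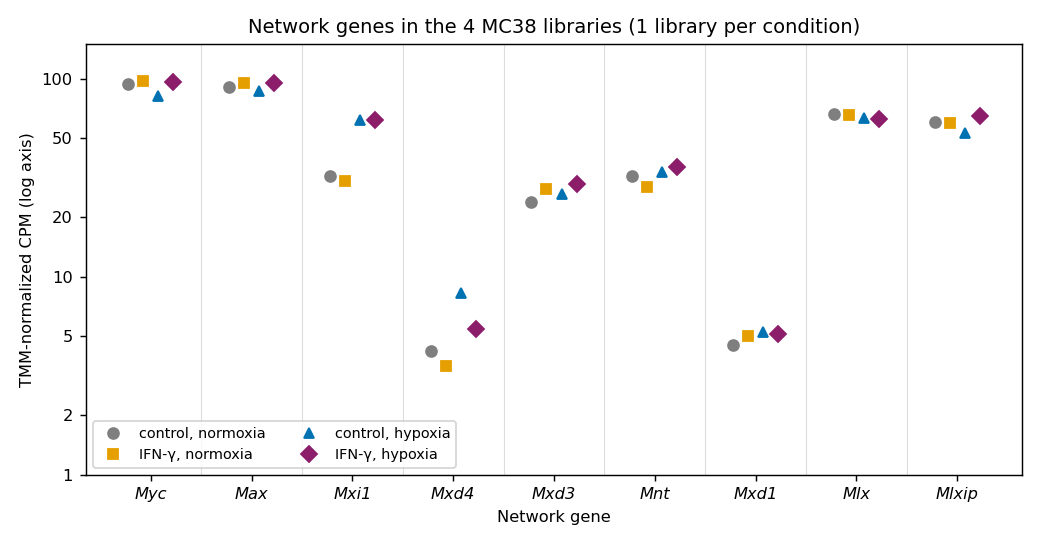
TMM-normalized CPM (log axis) of the 9 detected network genes in the 4 libraries, 1 point per library. Mxi1 and Mxd4 separate the hypoxic from the normoxic libraries, while Myc, Max, Mlx, Mlxip, Mxd3, Mxd1 and Mnt stay within narrow bands. CPM is not divided by gene length, so heights compare libraries within a gene.

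The effects of hypoxia and IFN-γ were estimated together in an additive model by edgeR's quasi-likelihood test, with adjustment over all 13580 genes tested, 9 members among them. No condition had a replicate. The spread is how far genes of like abundance depart from additivity, pooled over genes, so a gene's own departure did not enter its error (edgeR's prior degrees of freedom were infinite in this fit and 16.5 to 23.2 in the 4 fits with another scaling or filter). The p-values do not stand in for replicate cultures. Changes between 2 single libraries are log2 ratios of CPM with 95% intervals from counting error only, given in square brackets.

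Among the Myc antagonists, Mxi1 and Mxd4 rose with hypoxia. Of the 9 members tested, 2 were called raised and none lowered (edgeR, adjusted p under 0.05; by unadjusted p under 0.05, Mnt was added as raised and none as lowered). Of all tested genes, 8.21% were called raised and 6.83% lowered by adjusted p. By unadjusted p, 1913 of the 13580 were raised and 1682 lowered.

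Mxi1 (gene ID 17859, GRCm38 chr19:53310128-53373293) is an antagonist that pairs with Max and recruits Sin3, and it has been described in other cells as a HIF target. It had 1125, 2144, 1045 and 2115 counts, or 32.5, 62.0, 30.5 and 61.7 CPM. Both hypoxic libraries stood near the same level, far above both normoxic ones, and IFN-γ made little difference at either oxygen level. The fitted hypoxia change was 0.98 on the log2 scale (SE 0.0752, 1.97-fold, adjusted p = 7.33e-36 edgeR's quasi-likelihood test, Benjamini-Hochberg adjusted). It was 0.93 [0.83, 1.04] without IFN-γ and 1.02 [0.91, 1.13] with IFN-γ. The call held in 6 of 6 alternative fits, with adjusted p between 1.20e-15 and 0.00435, and 0.839% of tested genes were called raised by at least as much (1.13% for Mxd4 in the same way). Its IFN-γ change was -0.05 (adjusted p = 0.910, edgeR).

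Mxd4 (gene ID 17122, chr5:34176580-34187710), an antagonist linked to differentiating cells, had 146, 285, 122 and 187 counts, or 4.22, 8.25, 3.56 and 5.46 CPM. Both hypoxic libraries were above both normoxic ones, and within each oxygen level the IFN-γ library was the lower. Its fitted hypoxia change was 0.80 (SE 0.165, 1.75-fold, adjusted p = 3.45e-05, edgeR), with 0.97 [0.67, 1.27] without IFN-γ and 0.62 [0.28, 0.96] with it. The hypoxia call held in 4 of 5 alternative fits that gave an adjusted p. It was lost when hypoxia was the only term and 2 libraries were set against 2 (adjusted p = 0.196, edgeR), and DESeq2 gave no adjusted p for this low count (unadjusted p = 0.00771). The IFN-γ change of Mxd4 was -0.44 (SE 0.165, unadjusted p = 0.00746, adjusted p = 0.104, edgeR), which did not pass the test. Between single libraries it was -0.24 [-0.60, 0.11] in normoxia and -0.59 [-0.87, -0.32] in hypoxia.

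In each of the 2 hypoxia pairs 4 of the 9 members had intervals away from 0, against 45.3% of tested genes without IFN-γ and 45.8% with it: Mxi1 and Mxd4 in both, Myc and Mlxip without IFN-γ, and Mnt and Mlxip with it. The other antagonists gave smaller values than Mxi1 and Mxd4. Mnt (17428, chr11:74830806-74845725), a broadly expressed repressor that pairs with Max and Mlx, had 1115, 1166, 975 and 1231 counts. Its highest library was IFN-γ with hypoxia and its lowest IFN-γ with normoxia, so the control libraries lay between. The fitted hypoxia change was 0.20 (SE 0.0795, unadjusted p = 0.0113, adjusted p = 0.0667, edgeR), not past the threshold. Mxd3 (17121, chr13:55325170-55329900), an antagonist known from dividing cells, had 827, 907, 955 and 1006 counts. Each of its treated libraries was above the untreated one, with a hypoxia change of 0.11 (adjusted p = 0.456, edgeR) and an IFN-γ change of 0.19 (unadjusted p = 0.0220, adjusted p = 0.222, edgeR). Mxd1 (17119, chr6:86647044-86669234), the founding Mad gene of terminal differentiation, had 157, 182, 172 and 177 counts, and its intervals included 0 in every pair of libraries.

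Myc itself (17869, chr15:61985341-61990361) had 3278, 2842, 3359 and 3289 counts, or 94.7, 82.2, 98.0 and 96.0 CPM. The control library under hypoxia was the low one, and the other 3 lay close together. Neither stimulus passed the test for Myc: the hypoxia change was -0.12 (SE 0.0636, adjusted p = 0.235, edgeR) and the IFN-γ change 0.14 (SE 0.0636, unadjusted p = 0.0326, adjusted p = 0.283, edgeR). With both stimuli together, Myc differed from the untreated control by 0.02 [-0.05, 0.09], an interval that includes 0.

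Max (17187, chr12:76937269-76962323), the partner on which Myc and its antagonists depend, had 3137, 2988, 3281 and 3252 counts. Its hypoxia change was -0.04 (SE 0.0637, adjusted p = 0.756, edgeR) and its IFN-γ change 0.11 (adjusted p = 0.496, edgeR), and its lowest and highest libraries were the control under hypoxia and IFN-γ under normoxia, as for Myc. Mlx (21428, chr11:101086707-101092207) had 2311, 2199, 2247 and 2139 counts, with a hypoxia change of -0.07 (adjusted p = 0.578, edgeR) and an IFN-γ change of -0.03 (adjusted p = 0.951, edgeR). Both single-pair changes of Mlx with hypoxia were -0.07, with intervals that included 0.

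Mlxip (208104, chr5:123394521-123457932) was the member whose hypoxia pairs had opposite signs with both intervals away from 0. It had 2090, 1846, 2051 and 2235 counts, or 60.4, 53.4, 59.8 and 65.2 CPM. The 2 hypoxic libraries were thus its lowest and its highest, and the 2 normoxic ones lay together between them. Hypoxia went with -0.18 [-0.27, -0.09] without IFN-γ and 0.13 [0.04, 0.21] with IFN-γ. Opposite signs with both intervals away from 0 were found in 3.29% of tested genes. The fitted changes, -0.02 with hypoxia (adjusted p = 0.874, edgeR) and 0.14 with IFN-γ (adjusted p = 0.359, edgeR), average over this and did not pass the test, and the opposite signs did not widen its error.

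**Figure D2:**
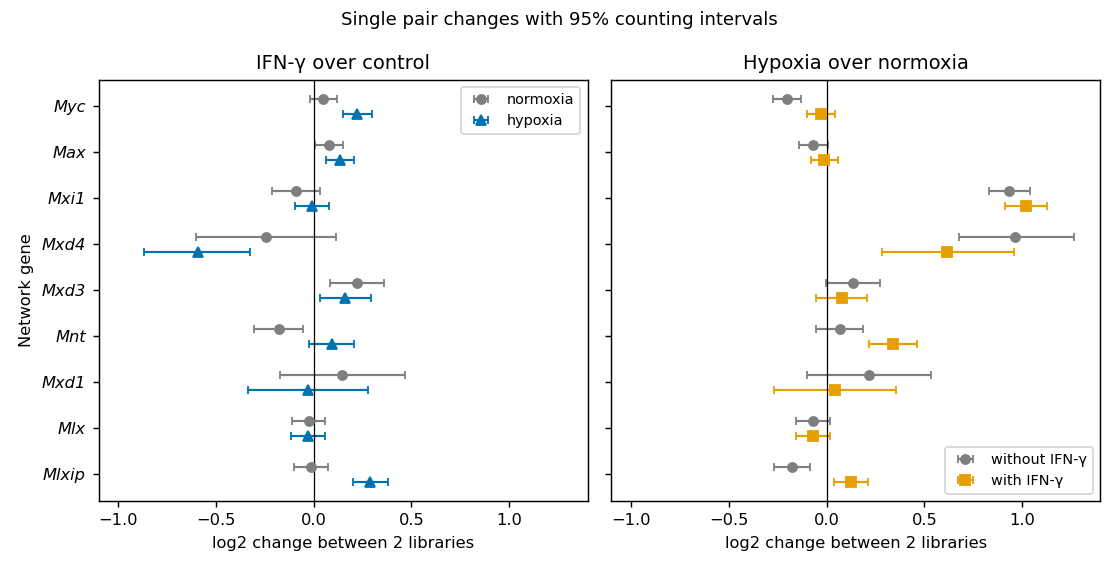
Log2 change between single libraries for the 9 detected network genes, with IFN-γ over control on the left and hypoxia over normoxia on the right. Points are ratios of TMM-normalized CPM and bars are 95% counting intervals, without replicate error. With hypoxia, Mxi1 and Mxd4 lie far to the right in both pairs, and Mlxip lies on opposite sides of 0.

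No member passed the test for IFN-γ. Of all tested genes, 4.76% were called raised and 1.1% lowered. By unadjusted p under 0.05, 2 members were above 0 (Myc and Mxd3) and 1 below (Mxd4), against 1104 and 793 of 13580 tested genes. DESeq2's Wald test called 0 members. The largest IFN-γ values in single pairs, those of Mxd4 and Mlxip, were found in hypoxia. The values of Mxd3, Mnt, Mxd1 and Mxi1 lay further from 0 in normoxia. In hypoxia, 5 of 9 members had intervals away from 0, against 37.7% of tested genes: Myc at 0.22 [0.15, 0.30], Max at 0.14 [0.06, 0.21], Mxd3 at 0.16 [0.03, 0.29], Mlxip at 0.29 [0.20, 0.38] and Mxd4 at -0.59. In normoxia, 3 of 9 had such intervals, against 34.9% of tested genes: Max at 0.08 [0.01, 0.15], Mxd3 at 0.22 [0.09, 0.36] and Mnt at -0.18 [-0.30, -0.05].

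The IFN-γ change in hypoxia minus that in normoxia could be computed but not tested, since no condition had a replicate. It was 0.30 [0.18, 0.43] for Mlxip, 0.27 [0.10, 0.44] for Mnt and 0.17 [0.07, 0.27] for Myc, and the counting intervals of the 6 other members included 0. Such intervals lay away from 0 for 30.3% of tested genes, so 3 of 9 members is near the background. Of the 10443 well counted genes (100 counts or more per library), 9.95% had a difference at least as far from 0 as Mlxip, 12.7% as Mnt and 28.0% as Myc.

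The joint treatment set against the untreated control left Mxi1 highest, at 0.93 [0.82, 1.03]. Mxd4 stood at 0.37 [0.05, 0.69], Mxd3 at 0.30 [0.16, 0.43], Mnt at 0.16 [0.04, 0.28] and Mlxip at 0.11 [0.03, 0.20], and Mlx at -0.10 [-0.18, -0.01]. In all, 6 of 9 members had intervals away from 0 here, against 47.6% of tested genes.

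Because Myc and its antagonists compete for Max, their transcripts were also set against each other per transcript length. The RPKM of Myc, Mxi1, Mxd1, Mxd3, Mxd4 and Mnt were summed. Mga, another Max partner with a mean of 5.28 RPKM, was not part of this sum. Myc made up 58.2% of it in the untreated control, 48.3% in the control under hypoxia, 58.2% with IFN-γ under normoxia and 51.1% with both. Mxi1 made up 9.28%, 16.9%, 8.41% and 15.3%. Both hypoxic libraries therefore held a smaller share of Myc and a larger share of Mxi1 than both normoxic ones. Mxd3 kept 19.7% to 22.2% and Mnt 8.61% to 10.1%, and Mxd4 and Mxd1 stayed under 2.5% each.

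Expressed as a ratio, Myc transcripts per summed antagonist transcripts were 1.39 [1.32, 1.47], 0.934 [0.890, 0.981], 1.39 [1.32, 1.47] and 1.05 [0.999, 1.10] in the 4 libraries. The ratio was 32.9% lower with hypoxia without IFN-γ and 24.9% lower with IFN-γ. In the first pair the summed antagonists went from 29.1 to 37.6 RPKM and in the second from 30.1 to 39.2. Mxi1 supplied 68.4% and 67.8% of these increases. Myc moved the ratio as well, going from 40.5 to 35.2 RPKM in the first pair and from 41.9 to 41.1 in the second. Per kilobase of all exons together the ratios were 1.52, 1.04, 1.53 and 1.16, and the hypoxic values were lower by 31.7% and 24.7%. Myc per Mxi1 alone was 6.28, 2.86, 6.92 and 3.35. These are ratios of transcripts, and the amounts of the proteins were not analysed here.

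**Figure D3:**
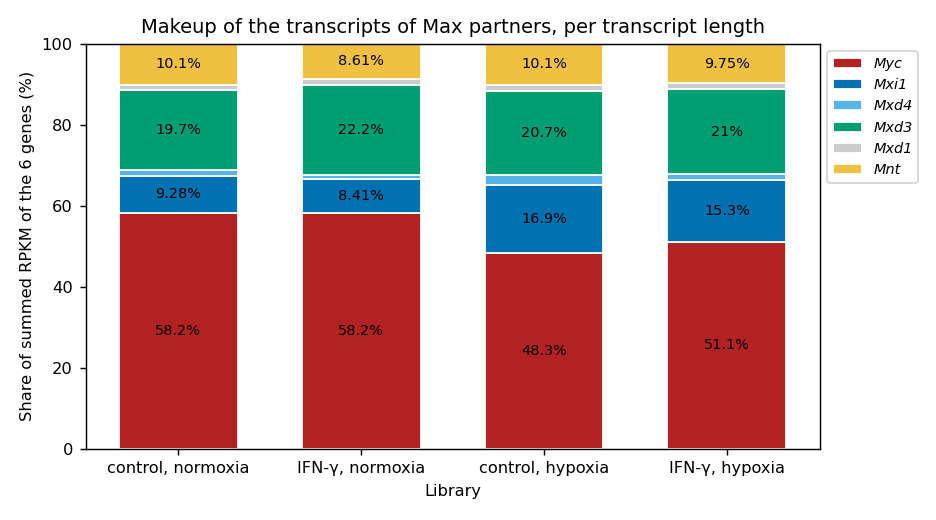
Makeup of the summed RPKM (longest transcript) of Myc and the 5 antagonist genes that pair with Max, in percent, for each of the 4 libraries. Myc makes up 58.2% in both normoxic libraries against 48.3% and 51.1% in the hypoxic ones, where Mxi1 takes 16.9% and 15.3%.

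The genes whose pattern over the 4 libraries lay nearest to a member were sought for Mxi1 and Mxd4, the members whose CPM varied most. Likeness was the root mean square difference of centred log2 CPM, over the same 10443 well counted genes. Nearest to Mxi1 were Tnfaip3 (0.0240), which encodes the ubiquitin editing enzyme A20, Ldha (0.0263), lactate dehydrogenase A, and Pgk1 (0.0327), phosphoglycerate kinase. Tnfaip3 had 371, 727, 361 and 712 counts, high in both hypoxic libraries and nearly equal within each oxygen level, as Mxi1 was. Nearest to Mxd4 were Cdc42ep2 (0.0559), an effector of the GTPase Cdc42, Nudt18 (0.0978), a nucleotide hydrolase, and Acsbg1 (0.104), an acyl-CoA synthetase. Cdc42ep2 had 179, 328, 149 and 240 counts, with the control under hypoxia highest and IFN-γ under normoxia lowest, the order of Mxd4. With 4 libraries, such likeness is a description only.

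Many genes that Myc is known to activate fell with hypoxia, although Myc itself did not pass the test. Of 49 such genes, 31 were called lowered (63.3%, against 6.83% of all tested genes) and 1 raised, with a median log2 change of -0.19, where all tested genes had a median of 0.00. The 31 lowered genes fell by small amounts, 7.67% to 28.1% with a median of 16.1%. Small changes are more easily called at high counts. Apart from Tert (a mean of 149.75 counts per library), the list genes had means of at least 1007.5 (Exosc5), both named after their values were seen. The filter for all tested genes was at 10 counts. The part of count depth in this contrast was not tested, and the list was chosen with earlier results of these data known. Below 0 in both hypoxia pairs were 40 of 49 (81.6%), against 31.9% of all tested genes. The median of the 49 genes was -0.13 without IFN-γ and -0.23 with IFN-γ. Myc itself differed between hypoxia and normoxia by -0.20 without IFN-γ, with a counting interval away from 0. With IFN-γ, Myc differed by -0.03 [-0.10, 0.04]. Any link between these changes was not tested. DESeq2 called 22 of the 49 lowered, against 214 among all tested genes. With hypoxia as the only term and 2 libraries set against 2, 4 of the 49 were called lowered, against 26 among all tested genes.

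Grwd1, a ribosome assembly factor, had 2144, 1485, 2218 and 1649 counts and fell by 0.48 on the log2 scale (SE 0.0718, adjusted p = 2.15e-09, edgeR). Srm, the spermidine synthase, had 8513, 6069, 8410 and 6181 counts and fell by 0.46 (SE 0.0558, adjusted p = 1.05e-14, edgeR). Rrp9, a processing factor of ribosomal RNA, had 5049, 3852, 5503 and 4079 counts and fell by 0.41 (SE 0.0596, adjusted p = 4.78e-10, edgeR). In all 3 genes both hypoxic libraries were below both normoxic ones. The raised gene was Ldha, which HIF also activates, with 84418, 161768, 79817 and 153758 counts and a change of 0.94 (SE 0.0421, adjusted p = 4.09e-106, edgeR).

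The list was also split by function, in groups drawn up after the values were seen, and differences between these groups were not tested. Of 20 genes of ribosome biogenesis 17 were lowered (median -0.28), and of 10 genes of nucleotide, one-carbon and polyamine metabolism 9 were lowered (median -0.22). All 3 genes of mitochondrial chaperones and peroxidase were lowered (median -0.16). Of 8 cell cycle and DNA replication genes 1 was lowered (median -0.08), and of 3 translation initiation factors none was (median -0.04). Of the 5 other genes 1 was raised and 1 lowered (median -0.06). A separate list of 10 proliferation genes had 1 raised and 1 lowered with hypoxia, 10% each against 8.21% and 6.83% of all tested genes. With IFN-γ, 2 of these 10 were raised, 20% against 4.76%: Top2a, a topoisomerase, by 0.28 and Rrm2, a ribonucleotide reductase subunit, by 0.17, both named after their values were seen. None of the 49 genes activated by Myc was called for IFN-γ by edgeR (1 of them, Rrp9, had an unadjusted p under 0.05) or by DESeq2, and their median IFN-γ change was 0.00.

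Some genes that Myc is known to repress rose with hypoxia. Of 11 such genes 9 were tested, and 4 were called raised (44.4%, against 8.21% of all tested genes) and none lowered (against 6.83%), with a median of 0.33. With hypoxia as the only term, 2 were called raised, against 150 among all tested genes. Ndrg1, a stress response gene, had 4062, 9264, 4049 and 10098 counts and a change of 1.26 (SE 0.0572, adjusted p = 5.62e-102, edgeR). Cdkn1a, the cell cycle inhibitor p21, had 3125, 6174, 3107 and 5832 counts and a change of 0.95 (SE 0.0603, adjusted p = 1.72e-52, edgeR). Both genes are known to respond to hypoxia through other factors as well. Cdkn1b, the cell cycle inhibitor p27, changed by 0.39 (SE 0.0711, adjusted p = 1.26e-06, edgeR) from 1690, 2072, 1680 and 2359 counts, and Ddit3, a transcription factor of the stress response, by 0.33 (SE 0.0825, adjusted p = 0.000992, edgeR) from 814, 1155, 924 and 1030 counts. For IFN-γ none of the 9 was called by edgeR or DESeq2, and 1 (Gadd45b) had an unadjusted p under 0.05.

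**Figure D4:**
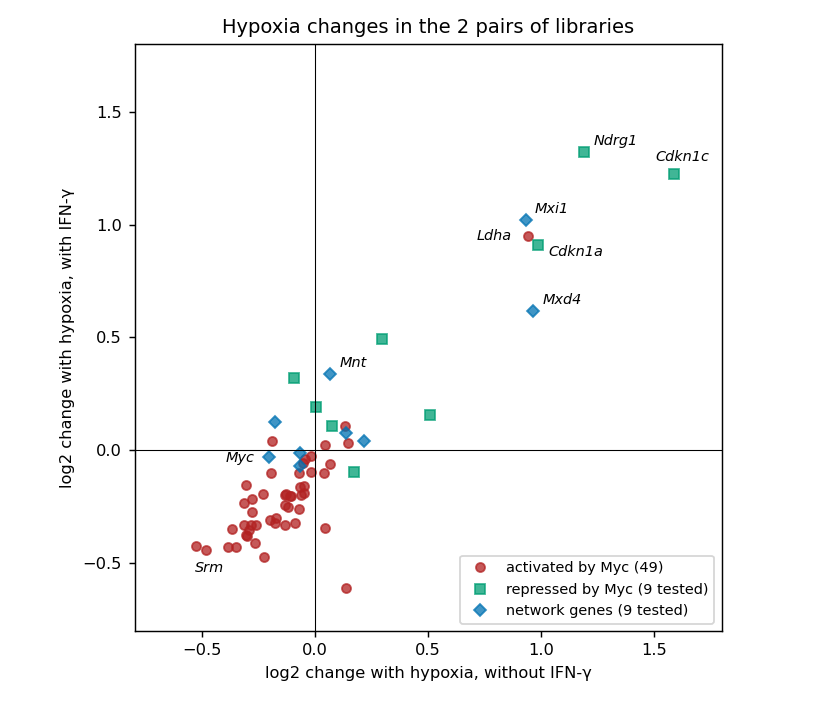
Log2 change with hypoxia without IFN-γ (horizontal) and with IFN-γ (vertical), 1 point per gene, for 49 genes activated by Myc, 9 repressed by Myc and the 9 detected network genes. Most activated genes lie below 0 in both pairs, Ldha lies at the upper right, and Mxi1 and Mxd4 lie among the raised genes. Cdkn1c, named here after its values were seen, had 19 counts or fewer in every library and was not called.

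Among transcripts of the proteins through which the network acts, shares of called genes are set beside 8.21% raised and 6.83% lowered by hypoxia and 4.76% raised by IFN-γ over all tested genes. Of 12 coactivators and other partners of Myc, 16.7% were called lowered with hypoxia and 8.33% raised with IFN-γ. Kat2a (-0.26, adjusted p = 0.000515, edgeR), a histone acetyltransferase, and Ruvbl1 (-0.16, adjusted p = 0.0399, edgeR), an ATPase, were the lowered ones. Ep400, a chromatin remodelling ATPase, had 5577, 5080, 6465 and 7759 counts and rose with IFN-γ by 0.43 (adjusted p = 5.50e-12, edgeR), being highest with both stimuli. DESeq2 called none of these 3 changes. Of 11 subunits of the Sin3 and NCoR corepressors that work with Mxi1, Mxd4 and Mnt, Sap30 was called raised with hypoxia (9.09% of the list, near the background), from 3285, 4954, 3627 and 4854 counts (0.51, SE 0.0607; adjusted p = 6.80e-15, edgeR), and none was called for IFN-γ by edgeR or DESeq2. Of 16 genes that set the stability of Myc protein, Skp2, a ubiquitin ligase subunit, was called lowered with hypoxia (6.25% of the list, near the background, at -0.18, adjusted p = 0.0357, edgeR), a call that DESeq2 did not make, and none was called for IFN-γ.

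Of 5 known targets of Mlxip or Mlxipl with Mlx, 3 were tested, and Arrdc4 and Pklr were at 0 in every library. Txnip, an inhibitor of glucose uptake, had 1625, 1786, 1328 and 1509 counts, with both IFN-γ libraries below both controls. It fell with IFN-γ by 0.25 (SE 0.0745, adjusted p = 0.0143, edgeR), a call lost in DESeq2, and its hypoxia change of 0.16 did not pass (adjusted p = 0.133, edgeR). Hk2, a hexokinase that HIF also activates, had 3672, 6827, 3801 and 6953 counts and rose with hypoxia by 0.88 (adjusted p = 3.51e-48, edgeR).

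Some members share exon sequence with genes on the opposite strand, and whether the counting used the strand is not given in the sources used here. Mlx overlaps Psmc3ip over 385 bases, 19.3% of its exons, and Psmc3ip had 790 to 996 counts against 2139 to 2311 for Mlx. Mxd3 overlaps Prelid1 over 105 bases, 4.43% of its exons, and Prelid1 had 25463 to 31855 counts, so part of the Mxd3 counts is uncertain. Mxi1 and Mxd4 overlap predicted genes over 2.84% and 6.06% of their exons. The part of these overlaps in the changes above was not tested.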

How the data were processed

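The labels and the study's methods describe strand-specific poly-A libraries of MC38 cells, read from both ends on a DNBSEQ instrument and aligned with HISAT2. The submitters' processing notes name featureCounts and mm10. The deposited values are raw counts per gene in whole numbers, which the authors left unnormalized. The annotation, strand setting and treatment of multi-mapped reads are not given in the sources used here. Symbols matched 25275 of 27179 gene IDs (RefSeq, GRCm38.p6), and gene coordinates came from the same RefSeq genes. Lengths and exon overlaps came from GENCODE M21 on GRCm38.

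Effects were tested with edgeR 4.0.16 (R 4.3.3): quasi-likelihood test, TMM, edgeR's low-count filter at a minimum of 10 counts, an additive model of oxygen and IFN-γ over the 4 libraries, and Benjamini-Hochberg adjustment at 0.05 over the 13580 genes tested. Each gene has 1 residual degree of freedom, and edgeR pooled the spread by abundance with infinite prior degrees of freedom, so a gene's own departure from additivity did not enter its test. The pooled spread mixes differences between cultures with interactions across genes. The pooled coefficient of variation was 4.71%. For each pair of libraries, 0.5 counts were added before taking the log2 ratio of CPM (TMM), with exact Clopper-Pearson 95% intervals for counting error only, and the difference of IFN-γ changes has a 95% Poisson interval. Intervals of ratios of RPKM cover counting error only. The procedure was tested on simulated data with the same spread for every gene and no interaction of the stimuli. That test does not cover genes that depart from this setting.

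The members and gene lists were chosen with earlier results of these data known. Lists covered coactivators and other partners of Myc, Sin3 and NCoR corepressors, Myc stability, and genes activated or repressed by Myc. They also covered Mlxip targets, proliferation, stimulus checks and cell type markers. Named genes were the members, Mycl, Mga, Mlxipl, Txnip, Arrdc4, 5 genes checking the labels, up to 4 genes per other pathway list and stimulus with the largest fitted change among those with adjusted p under 0.05 and a mean of at least 50 counts, and the 3 genes nearest in pattern to each member whose log2 CPM spanned at least 0.4. Gadd45b, Pklr, Pdgfra, the other cell type markers and the overlapping genes were named after their values were seen. Alternatives were DESeq2's size factors or total counts in place of TMM, DESeq2 1.42.0 (Wald test), no filter, at least 10 counts in every library, 2 libraries against 2 without the other stimulus, unadjusted p, 5 counts added, and exon union length. For the lists, the size factors, total counts and 2 against 2 were added after the data were seen.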

Additional observations from a re-analysis of the deposited data

Results flagged for a closer look

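Mlxip went in opposite directions with hypoxia in the 2 pairs of libraries: its log2 change was -0.18 without IFN-γ and 0.13 with IFN-γ, both with counting intervals away from 0. With 1 library per condition the difference between these changes was not tested.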

How the results depend on the processing

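No paired analysis was possible because each condition had 1 library and the groups shared fewer than 2 replicate numbers. Leaving out a library left no residual degrees of freedom and was not run. Of 124 alternative values for the members' fitted changes, 119 kept their direction and side of the threshold, 1 lost its call (Mxd4 with hypoxia, 2 libraries against 2), 4 passed only without adjustment and 0 reversed. All 135 alternative single-pair changes of the members and all 27 differences stayed within their intervals. Of all tested genes, IFN-γ raised 647 (DESeq2 353, 2 against 2 239, unadjusted p 1104) and lowered 149 (DESeq2's size factors 99, DESeq2 16, no filter 71, at least 10 counts in every library 74, 2 against 2 3, unadjusted p 793). Hypoxia raised 1115 (DESeq2 362, 2 against 2 150, unadjusted p 1913) and lowered 927 (DESeq2 214, 2 against 2 26, unadjusted p 1682). Without adjustment, 2 members were raised and 1 lowered with IFN-γ, against 0 and 0. The 2 members raised with hypoxia became 1 with DESeq2 and 1 in the comparison of 2 against 2. Coactivators lowered by hypoxia went from 2 to 1 with DESeq2's size factors and to 0 with DESeq2 and with 2 against 2, and the 1 raised by IFN-γ to 0 with the latter settings. The 1 stability gene lowered by hypoxia went to 0 under these 3 settings. With 2 against 2, genes lowered among those activated by Myc went from 31 to 4 and genes raised among those repressed by Myc from 4 to 2. The 1 Mlxip target lowered by IFN-γ went to 0 with DESeq2 and with 2 against 2. Exon union lengths moved the ratio of Myc to its antagonists to 1.52, 1.04, 1.53 and 1.16, with the same order of hypoxic below normoxic libraries. The causes of these shifts were not tested. The largest shift of the median of all genes under another scaling was 0.0272 on the log2 scale. The members with fewest counts were Mxd1 (157 to 182) and Mxd4 (122 to 285), with the largest standard errors.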
